A study of Mus musculus with 9 samples.

Results

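The tissue kallikreins of the epidermis, their inhibitor LEKTI (gene Spink5) and the activating protease matriptase (gene St14) were followed in mouse ear skin after anti-CTLA-4 treatment. The set held 10 genes out of 25124 in the expression table, taken by gene name: Klk5, Klk6, Klk7, Klk8, Klk10, Klk11, Klk13, Klk14, Spink5 and St14. All 10 were found once each, and 9 passed the filter on low values. Klk14 did not pass it and is described by its values alone.

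Bulk RNA sequencing of whole ear tissue gave 9 libraries from C57BL/6 mice, 4 labelled S. epi + anti-CTLA-4 and 5 labelled S. epi. All of the mice received the skin commensal Staphylococcus epidermidis, strain LM087, swabbed on the ears every other day, and skin was taken on day 8. The mice of the first group were also given an antibody against CTLA-4, an inhibitory receptor of T cells. The labels do not state the antibody's clone, dose or schedule or the age and sex of the mice, and no group without the bacterium was analysed here. The libraries carry replicate numbers but are not stated to come from separate mice, so the p-values reflect sample-to-sample spread, which may be technical.

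Kallikreins are secreted serine proteases that granular keratinocytes release as inactive precursors into the spaces between the cells of the outermost skin layer. There KLK5 activates itself and then other kallikreins, and the active enzymes cut desmoglein 1, desmocollin 1 and corneodesmosin, the proteins of the junctions that hold dead cells in place until they are shed. LEKTI blocks several of these enzymes, and its loss causes Netherton syndrome, in which the skin peels and is inflamed. In mice, matriptase acts upstream of the kallikreins.

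Most of the set had a lower mean level with anti-CTLA-4, and no member passed the test. Of 9 tested members, 7 had a negative log2 fold change and 2, Klk6 and Klk13, a positive one, and 53.0% of all genes tested had a negative one. The median log2 fold change of the 9 was -0.22, against -0.014 over all 15704 genes tested. At an adjusted p under 0.05 limma called 0 of the 9 members, against 11.6% of all genes tested. Of the members, 5 had an unadjusted p under 0.05, all of them lower with anti-CTLA-4, against 12.8% of all genes tested in that direction. The exact permutation test cannot give an adjusted p below 0.110 with these libraries and calls 0 of all genes. Limma-voom on reads recovered from the values called 1 member, Klk5, as it did 7.25% of all genes in the lower direction. In bulk skin, fewer cells of a type and less RNA per cell cannot be told apart.

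Library depth, as recovered reads of the genes in the expression table, was 10213724 to 13868681. Over all genes, 1124 were called higher with anti-CTLA-4 (7.16%) and 704 lower (4.48%). Of 10 leukocyte genes 9 were called higher, with a summed level of 465 to 751 TPM with anti-CTLA-4 against 294 to 425 TPM with S. epi alone. Levels are given as TPM, as deposited, in which reads are divided by a gene's length and scaled to a library total. The genes in the expression table summed to 696393 to 728933 TPM per library, so their totals were not equal. The length used was the genomic span of each gene, introns included, so a gene with long introns has a low TPM for its reads. A gene's length is the same in every library, but the order of genes depends on it. The scale of each library also depends on the lengths used, so comparisons between libraries are not free of them.

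The 8 kallikreins of the set lie on the plus strand of chromosome 7 (mm10) within a cluster in which the starts of Klk14 and Klk5 are 152 kb apart. In genomic order the members are Klk14 (chr7:43690418-43695536), Klk13 (chr7:43712567-43726758), Klk11 (chr7:43776329-43779262), Klk10 (chr7:43781054-43785410), Klk8 (chr7:43797577-43803826), Klk7 (chr7:43811294-43816387), Klk6 (chr7:43825450-43832027) and Klk5 (chr7:43842269-43851181). Their longest protein-coding transcripts have 5 to 7 exons (GENCODE M21). By its whole span, the antisense gene 2310002F09Rik overlaps Klk8, Klk10, Klk11, Klk13 and Klk14 in that annotation. No source states that reads were counted by strand, so reads of these 5 genes and of the antisense RNA may not have been told apart. On the same strand, Gm44814 overlaps Klk13 and Gm44817 overlaps Klk14, and neither is in the expression table.

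The RefSeq promoters (GRCm38.p6) of 4 kallikreins are shown, because Klk5 and Klk11 were the members with the smallest adjusted p among the kallikreins, and Klk6 and Klk13 were the 2 with a positive difference. Each line holds the 250 bases before the gene's start, on the plus strand, and capitals mark CCACCC (or GGGTGG, the same letters on the other strand) and TTAAAA.
Klk5 (chr7:43842019-43842268): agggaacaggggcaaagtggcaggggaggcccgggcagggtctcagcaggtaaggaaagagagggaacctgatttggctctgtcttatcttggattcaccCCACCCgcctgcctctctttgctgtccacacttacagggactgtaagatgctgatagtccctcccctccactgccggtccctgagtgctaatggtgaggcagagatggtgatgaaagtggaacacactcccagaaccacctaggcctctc
Klk11 (chr7:43776079-43776328): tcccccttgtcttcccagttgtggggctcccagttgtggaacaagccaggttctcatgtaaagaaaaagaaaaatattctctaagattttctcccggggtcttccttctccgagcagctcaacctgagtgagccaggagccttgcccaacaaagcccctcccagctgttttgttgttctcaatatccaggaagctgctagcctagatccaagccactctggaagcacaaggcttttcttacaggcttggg
Klk6 (chr7:43825200-43825449): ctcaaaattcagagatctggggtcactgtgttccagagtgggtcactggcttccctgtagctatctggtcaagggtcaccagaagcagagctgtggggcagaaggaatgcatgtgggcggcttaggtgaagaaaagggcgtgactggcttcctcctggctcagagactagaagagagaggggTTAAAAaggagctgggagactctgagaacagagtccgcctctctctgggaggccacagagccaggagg
Klk13 (chr7:43712317-43712566): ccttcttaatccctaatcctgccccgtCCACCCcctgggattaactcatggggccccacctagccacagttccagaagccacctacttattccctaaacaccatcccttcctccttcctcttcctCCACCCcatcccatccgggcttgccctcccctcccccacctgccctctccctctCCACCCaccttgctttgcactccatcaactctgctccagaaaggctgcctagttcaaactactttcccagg

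Promoters were matched for all 8 kallikreins. On either strand, none of the 8 held TGANTCA (the AP-1 letters, in 6.75% of 32851 promoter windows of the same length), AACNNGTT (the grainyhead-like letters, 3.64%) or TATAAA (12.4%). CCACCC occurred in 5 of 8, those of Klk5, Klk7, Klk10, Klk13 and Klk14, against 28.1% of all windows. The Klk13 promoter held it 3 times, at 223, 125 and 71 bases before the start. TTAAAA occurred in 3 of 8, against 17.7% of all windows, at 68 bases before the start of Klk6, 26 before Klk8 and 17 before Klk10. CCACCC and TTAAAA were chosen after the sequences were seen. The Klk11 promoter held none of these letters. A match describes letters in this window and shows no binding.

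KLK5 activates itself and then other kallikreins. Klk5 had 26.9, 38.2, 37.4 and 31.3 TPM in S. epi + anti-CTLA-4 replicates 1 to 4, against 62.2, 42.5, 43.6, 44.5 and 43.5 TPM in S. epi replicates 1 to 5. Every anti-CTLA-4 library was below every S. epi library, and S. epi replicate 1 stood far above the other 4 of its group. The means were 33.4 ± 5.33 TPM with anti-CTLA-4 (SD, n = 4) and 47.3 ± 8.39 TPM with S. epi alone (SD, n = 5). The log2 fold change of TPM + 1 was -0.49 (SE 0.14, 95% interval -0.80 to -0.18), with a limma adjusted p of 0.0510. The exact two-sided permutation p was 0.0159, the smallest that 9 libraries split into 4 and 5 allow. Without S. epi replicate 1 the log2 fold change was -0.38 (adjusted p = 0.067, limma), and without anti-CTLA-4 replicate 1 it was -0.39 (adjusted p = 0.117, limma).

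Matriptase is a membrane protease whose gene, with 19 exons, lies on the minus strand of chromosome 9 (chr9:31088590-31131799). St14 had 8.52, 9.77, 9.70 and 10.1 TPM in S. epi + anti-CTLA-4 replicates 1 to 4, against 13.6, 10.7, 11.5, 11.8 and 10.7 TPM in S. epi replicates 1 to 5. The groups did not overlap, and S. epi replicate 1 was again the highest library. Its log2 fold change was -0.26 (95% interval -0.44 to -0.079), with a limma adjusted p of 0.0693.

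KLK11 is a trypsin-like kallikrein of the granular layer. Klk11 had 54.4, 66.5, 77.9 and 77.4 TPM in S. epi + anti-CTLA-4 replicates 1 to 4, against 103, 82.8, 101, 80.1 and 87.6 TPM in S. epi replicates 1 to 5. All of the anti-CTLA-4 libraries were below all of the S. epi libraries, with 77.9 TPM as the highest of the first and 80.1 TPM as the lowest of the second. The log2 fold change was -0.40 (95% interval -0.67 to -0.12), with a limma adjusted p of 0.0671. Klk5, Klk11 and St14 were thus 3 of 9 members whose groups did not overlap in the lower direction, which 6.39% of all genes tested did. In the higher direction 0 of 9 were free of overlap, against 8.02% of all genes tested.

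KLK7 is the chymotrypsin-like enzyme that cuts corneodesmosin and desmocollin 1. Klk7 had 265, 392, 328 and 366 TPM in S. epi + anti-CTLA-4 replicates 1 to 4, against 471, 353, 402, 320 and 358 TPM in S. epi replicates 1 to 5. It had the highest TPM of the members in every library, and its groups overlapped. On the log2 scale the difference was -0.18 (95% interval -0.49 to 0.14), with a limma adjusted p of 0.474. It was -0.065 without anti-CTLA-4 replicate 1 and -0.096 without S. epi replicate 1.

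KLK8, also called neuropsin, is a trypsin-like kallikrein known for a part in shedding and in skin repair. Klk8 had 24.0, 36.0, 29.7 and 30.5 TPM in S. epi + anti-CTLA-4 replicates 1 to 4, against 57.8, 32.9, 45.7, 35.2 and 34.7 TPM in S. epi replicates 1 to 5. As for Klk5, the lowest library was anti-CTLA-4 replicate 1 and the highest was S. epi replicate 1. The groups overlapped through anti-CTLA-4 replicate 2. On the log2 scale the difference was -0.42 (95% interval -0.82 to -0.030), with a limma adjusted p of 0.159.

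Klk10, which encodes a kallikrein whose role in skin is less clear, had 45.7, 47.0, 61.0 and 63.6 TPM in S. epi + anti-CTLA-4 replicates 1 to 4, against 65.2, 59.1, 54.4, 49.7 and 47.6 TPM in S. epi replicates 1 to 5. The groups covered nearly the same range. The log2 fold change was -0.029 (95% interval -0.32 to 0.26, limma adjusted p = 0.914), and its sign turned under several other settings.

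Klk14, a trypsin-like kallikrein that is prominent in human stratum corneum, was close to the limit of detection. It had 0.431, 0.669, 0.464 and 0.861 TPM in S. epi + anti-CTLA-4 replicates 1 to 4, against 0, 0.340, 0.860, 0.531 and 0.827 TPM in S. epi replicates 1 to 5. These values correspond to 3, 5, 4 and 8 reads with anti-CTLA-4, and to 0, 3, 7, 4 and 6 reads with S. epi alone. The group totals were 20 reads each (exact 95% Poisson interval 12.2 to 30.9, counting error only). These totals pool 4 libraries with anti-CTLA-4 and 5 with S. epi alone, so they do not stand for equal levels. The means were 0.606 TPM with anti-CTLA-4 and 0.512 TPM with S. epi alone. A difference between the groups was not detectable at this depth.

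Klk6 and Klk13 had positive differences that did not pass the test. KLK6 is a trypsin-like kallikrein, found in skin and in the nervous system. Klk6 had 38.1, 33.2, 46.2 and 79.2 TPM in S. epi + anti-CTLA-4 replicates 1 to 4, against 39.7, 22.7, 48.6, 14.4 and 41.4 TPM in S. epi replicates 1 to 5. The highest value was in anti-CTLA-4 replicate 4 and the lowest in S. epi replicate 4, and the groups overlapped. The log2 fold change was 0.59 (95% interval -0.25 to 1.42), with a limma adjusted p of 0.355. Klk13, which encodes a kallikrein of stratified epithelia, had 11.8, 12.6, 13.2 and 18.9 TPM in S. epi + anti-CTLA-4 replicates 1 to 4, against 11.7, 7.53, 13.1, 6.27 and 14.0 TPM in S. epi replicates 1 to 5. Its highest and its 2 lowest libraries were those of Klk6, and the groups overlapped. Its log2 fold change was 0.43 (95% interval -0.10 to 0.95), with a limma adjusted p of 0.283. Without S. epi replicate 4 the log2 fold change was 0.33 for Klk6 and 0.28 for Klk13, and without anti-CTLA-4 replicate 4 it was 0.34 for Klk6 and 0.29 for Klk13.

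The inhibitor gene Spink5, with 32 exons on the plus strand of chromosome 18 (chr18:43963241-44022487), had 53.8, 63.8, 65.3 and 69.1 TPM in S. epi + anti-CTLA-4 replicates 1 to 4, against 76.7, 72.9, 66.6, 74.5 and 75.9 TPM in S. epi replicates 1 to 5. Only S. epi replicate 3 fell inside the range of the anti-CTLA-4 libraries. The log2 fold change was -0.22 (95% interval -0.40 to -0.042), with a limma adjusted p of 0.109. Spink5 rested on 4332 to 7434 reads per library with anti-CTLA-4, against 6270.0 to 7440.0 with S. epi alone, the most reads of any member.

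**Figure D1:**
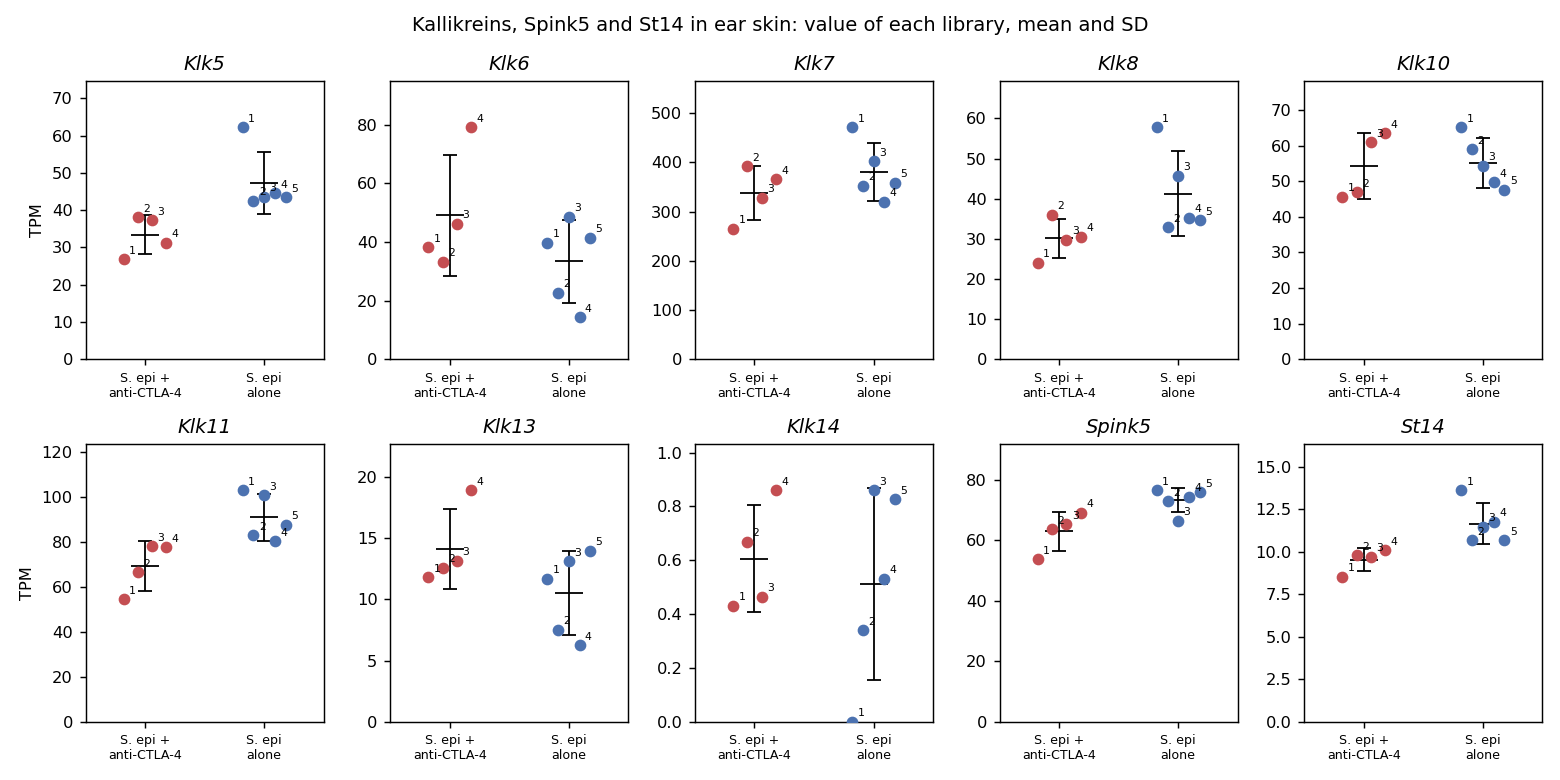
TPM of the 10 members in each library (points), with the mean and SD of each group, S. epi + anti-CTLA-4 left of S. epi alone, each panel with its own axis from 0. The anti-CTLA-4 libraries lie below all S. epi libraries for Klk5, Klk11 and St14, while Klk6 and Klk13 have their highest library with anti-CTLA-4.

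Some of these results turned on how libraries were brought to a common scale. With the 50 most abundant genes left out of the library total, limma called 4 members lower: Klk5 (adjusted p = 0.0329), Klk11 (0.0312), Spink5 (0.0414) and St14 (0.0327). The same scaling called 8.32% of all genes lower, against 4.48% with TPM as deposited. With the recovered reads scaled to the library total in place of TPM it called 3, Klk5 (0.0231), Klk11 (0.0493) and St14 (0.0469), and 7.25% of all genes lower. With TPM as deposited and any single library left out, limma called 0 of the 9 members, as it did with all libraries. Leaving out a library was not tried with the other scalings. Without S. epi replicate 1, the library with the highest level of 7 of the 9, the log2 fold change was -0.35 for Klk11 and -0.21 for St14.

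The order of the members by level was similar in both groups. Per base of gene span, Klk7 came first with 338 ± 55.1 TPM with anti-CTLA-4 (SD, n = 4) and 381 ± 58.4 TPM with S. epi alone (SD, n = 5), and its range did not overlap that of the next gene in either group. With anti-CTLA-4 the order went on with Klk11, Spink5, Klk10, Klk6, Klk5, Klk8, Klk13, St14 and Klk14, and neighbours from Klk11 to Klk8 overlapped in range. With S. epi alone it went on with Klk11, Spink5, Klk10, Klk5, Klk8, Klk6, St14, Klk13 and Klk14. There Klk11, Spink5 and Klk10 did not overlap one another, Klk10, Klk5, Klk8 and Klk6 overlapped in turn, and so did St14 and Klk13. Klk6 thus stood ahead of Klk5 and Klk8 by mean level with anti-CTLA-4 and behind both with S. epi alone.

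The order differed when exon length was used in place of gene span. In recovered reads per kilobase of the longest protein-coding transcript, Klk7 had 1444 ± 342 with anti-CTLA-4 (SD, n = 4) and 1585 ± 273 with S. epi alone (SD, n = 5). On the same scale Spink5 had 1244 ± 279 with anti-CTLA-4 and 1403 ± 102 with S. epi alone, overlapping Klk7 in both groups. Klk5 came next with 381 ± 82.1 reads per exon kilobase with anti-CTLA-4 and 525 ± 95.5 with S. epi alone. This scale takes all reads to be exonic and is not corrected for library depth. The transcript of the inhibitor was then near the most abundant protease in level, instead of below Klk11.

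The 8 kallikreins of the set summed to 467 to 667 TPM with anti-CTLA-4, against 551 to 811 TPM with S. epi alone. Klk7 made up 54.8 to 62.6% of the sum with anti-CTLA-4, against 56.7 to 58.8% with S. epi alone. The share of Klk5 was 4.69 to 6.29% with anti-CTLA-4, against 6.15 to 8.08% with S. epi alone. The share of Klk6 was 5.30 to 11.9% with anti-CTLA-4, against 2.61 to 6.86% with S. epi alone. These shares rest on TPM per gene span. Per exon length the share of Klk7 was 43.6 to 51.3% with anti-CTLA-4, against 46.0 to 48.7% with S. epi alone. On that scale the share of Klk5 was 9.99 to 13.6% with anti-CTLA-4, against 13.4 to 17.8% with S. epi alone, and that of Klk6 was 7.62 to 16.6% with anti-CTLA-4, against 3.76 to 9.78% with S. epi alone.

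Each kallikrein was also set against the inhibitor within its library, as a description. The TPM ratio of Klk13 to Spink5 was 0.197 to 0.274 with anti-CTLA-4, against 0.0841 to 0.197 with S. epi alone. The groups did not overlap, though the lowest anti-CTLA-4 library and the highest S. epi library were equal to 3 digits. The ratio of Klk6 to Spink5 was 0.520 to 1.15 with anti-CTLA-4, against 0.193 to 0.730 with S. epi alone, with overlap. The mean log2 ratio to Spink5 differed by 0.69 for Klk13, 0.83 for Klk6, 0.19 for Klk10 and 0.047 for Klk7. It differed by -0.28 for Klk5, -0.21 for Klk8 and -0.18 for Klk11, all with overlapping groups. With 1 library omitted in turn, the difference ran from -0.022 to 0.11 for Klk7, changing sign, from -0.30 to -0.10 for Klk8 (nearest to 0 without S. epi replicate 1) and from -0.23 to -0.11 for Klk11 (nearest to 0 without S. epi replicate 3). These differences are anti-CTLA-4 minus S. epi alone, and they were not tested.

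**Figure D2:**
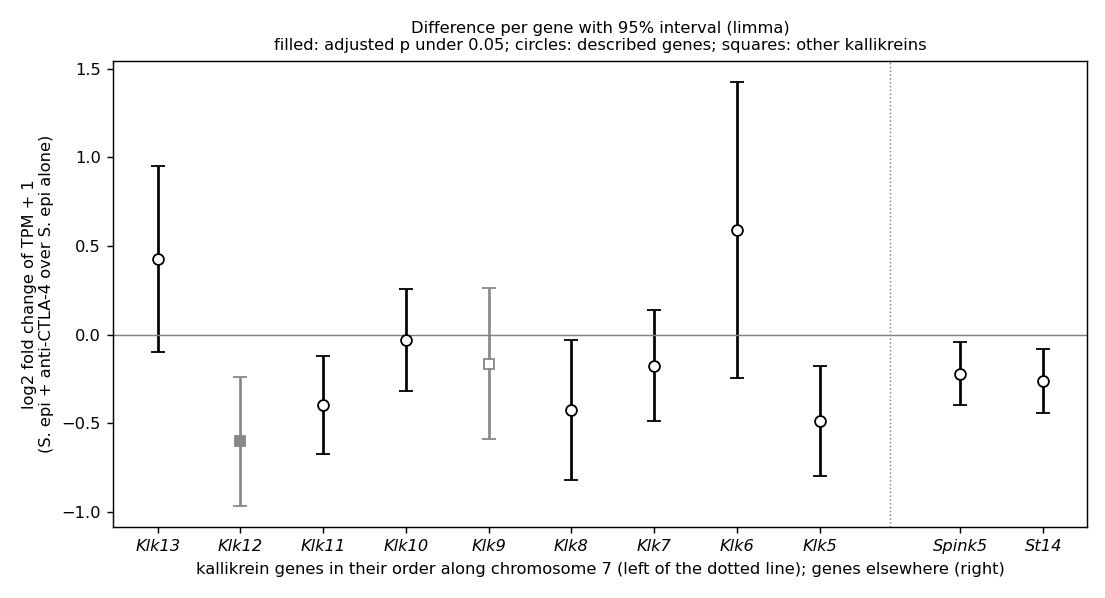
Log2 fold change of TPM + 1 (S. epi + anti-CTLA-4 over S. epi alone) with its 95% interval for the tested kallikreins in their order along chromosome 7, and for Spink5 and St14 to the right of the dotted line. The intervals of Klk6, Klk7, Klk9, Klk10 and Klk13 include 0, and Klk12 is the filled point at -0.60, drawn like Klk9 as a square because neither is a member of the set.

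Across the 9 libraries the members fell into unlike profiles. The distance used is the root mean square difference of the log2(TPM + 1) deviations of 2 genes from their own means. It is not scaled to how much each gene varied, so 2 genes that both varied little have a small distance. The root mean square deviation of a single gene was 0.151 for Spink5 and 0.167 for St14. It was 0.315 for Klk5, 0.336 for Klk8 and 0.636 for Klk6. Spink5 and St14 were the closest pair of members, at 0.0996. Klk5 and Klk8 were 0.146 apart, Klk6 and Klk13 0.259, and Klk5 and Klk6, the farthest pair, 0.790. Klk6 and Klk13 lay within 0.259 of each other and at least 0.415 from every other member. All of these values share the same libraries and are a description.

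Marker lists of keratinocyte states were read in the same libraries. The mean log2(TPM + 1) of 10 granular keratinocyte markers was 7.41, 7.92, 7.68 and 7.49 in anti-CTLA-4 replicates 1 to 4, against 8.37, 7.97, 7.97, 7.95 and 7.82 in S. epi replicates 1 to 5. It was lowest in anti-CTLA-4 replicate 1 and highest in S. epi replicate 1, as were 7 of the 9 tested members and the spinous keratinocyte list (9.33 and 9.94). The summed level of these markers was 2792 to 4350 TPM with anti-CTLA-4, against 3773 to 5935 TPM with S. epi alone, and 1 of the 10, Flg2, was called lower. Of 7 spinous markers 4 were called lower and 1, Krt1, higher, against 4.48% and 7.16% of all genes tested. Krt1 averaged 1506 TPM with anti-CTLA-4 and 792 TPM with S. epi alone (adjusted p = 0.0245, limma). The summed level of the spinous markers was 15414 to 19500.1 TPM with anti-CTLA-4, against 20195 to 25596 TPM with S. epi alone. Most of it was Krt10, which averaged 12599.5 TPM with anti-CTLA-4 and 16685.4 TPM with S. epi alone and was not called (adjusted p = 0.0809, limma). Of 7 basal keratinocyte markers 1, Col17a1, was called lower. The mean log2(TPM + 1) of the basal list was 7.960 to 8.1373 with anti-CTLA-4, against 8.1377 to 8.253 with S. epi alone. Its summed level was 7005 to 8311 TPM with anti-CTLA-4, against 6444 to 7863 TPM with S. epi alone. Of the hair follicle markers 4 of 10 tested were called lower, and of the sebaceous markers 3 of 7, against 4.48% of all genes tested. With the mean of the granular keratinocyte list as a covariate, the log2 fold change was -0.10 for Klk5 (adjusted p = 0.697, limma), 0.031 for Klk8, 0.14 for Klk7 and 0.093 for Klk10. It was -0.099 for St14, -0.15 for Spink5, -0.24 for Klk11, 0.49 for Klk6 and 0.39 for Klk13. With the skeletal muscle list as the covariate it was instead -0.65 for Klk5 and -0.62 for Klk11, and near 0 for Klk6 (-0.057) and Klk13 (-0.0044). Over all genes, the granular fit called 8 higher and 2 lower and the muscle fit 0 higher and 1 lower. The part of granular keratinocytes in the result was not tested.

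The mean log2(TPM + 1) of 9 wound keratinocyte markers was 7.73, 7.68, 7.89 and 8.60 in anti-CTLA-4 replicates 1 to 4, against 5.36, 6.32, 7.52, 5.00 and 7.36 in S. epi replicates 1 to 5. Like Klk6 and Klk13, the list was highest in anti-CTLA-4 replicate 4 and lowest in S. epi replicate 4. Its summed level was 3083 to 6830 TPM with anti-CTLA-4, against 434 to 2703 TPM with S. epi alone, and 1 of the 9, Stfa1, was called higher. Much of this sum was S100a8, with a mean of 1904 TPM with anti-CTLA-4 and 476 TPM with S. epi alone. S100a9 averaged 630 TPM with anti-CTLA-4 and 204 TPM with S. epi alone. Leukocyte markers were also higher with anti-CTLA-4, and the part of leukocytes in S100a8, S100a9 and Stfa1 was not tested. The basal, spinous, granular and wound lists had no marker at 0 in all libraries. Whether the wound state has a part in the values of Klk6 and Klk13 was not tested.

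**Figure D3:**
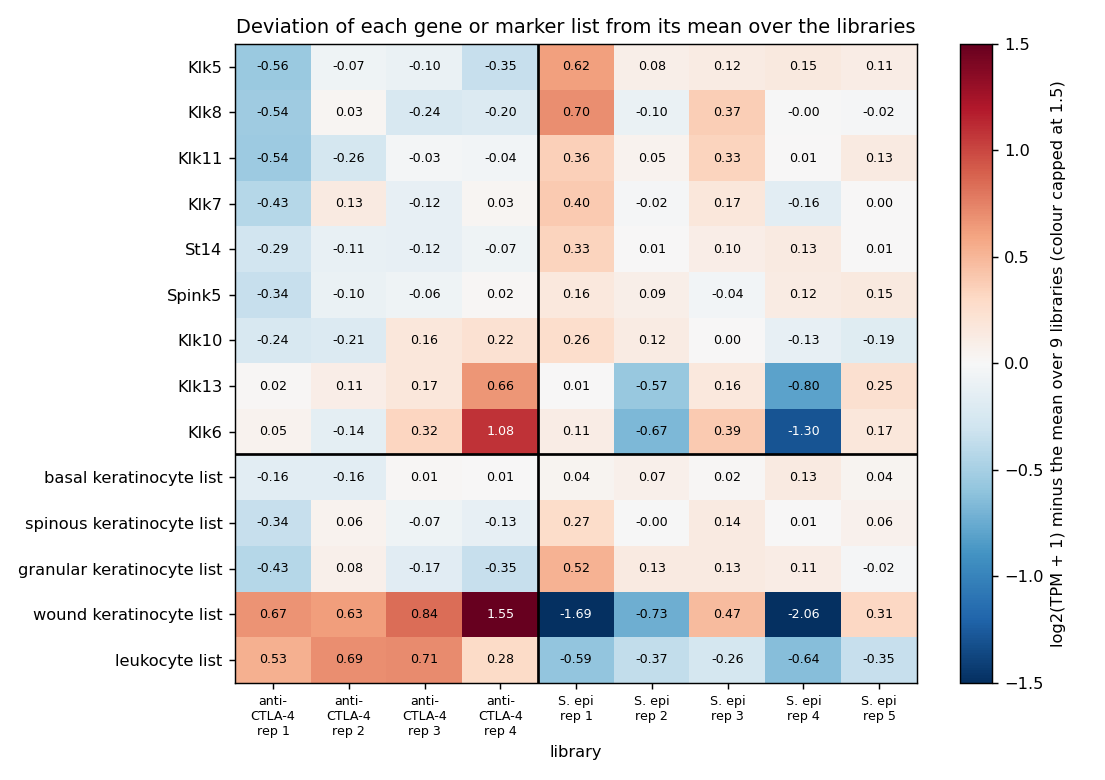
Deviation of log2(TPM + 1) from the mean over the 9 libraries for each tested member and for 5 marker lists, with S. epi + anti-CTLA-4 libraries to the left of S. epi libraries. Klk5, Klk8, Klk11, Klk7, St14, Spink5 and Klk10 share their lowest library (anti-CTLA-4 replicate 1) and their highest (S. epi replicate 1), while Klk6 and Klk13 are highest in anti-CTLA-4 replicate 4 and lowest in S. epi replicate 4.

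Among protein-coding genes outside the set, those nearest to each member by the same distance were named, 2 for each. Abca12 (0.067) and Rnf39 (0.076) were nearest to Klk5. Sprr2h (0.23) and Chil1 (0.25) were nearest to Klk6, and Bcl3 (0.16) and Nlrc5 (0.17) to Klk13. Hrnr (0.091) and Csta1 (0.093) were nearest to Klk7, and Zfp92 (0.085) and Trex2 (0.094) to Klk8. For Klk10 they were Leng1 (0.082) and Riox2 (0.086), and for Klk11 Sox7 (0.072) and Ptk6 (0.078). Atp2c2 (0.050) and Sltm (0.056) were nearest to Spink5, and Llgl2 and Hmgn3 (both 0.043) to St14. Of these, Abca12, Rnf39, Sox7 and Llgl2 were themselves called lower with anti-CTLA-4, against 4.48% of all genes tested. They were picked for closeness to a member over the same libraries, so these calls are no separate evidence.

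The rest of the pathway was read through 61 further genes, of which 34 were tested. Of these 34, limma called 5 higher (Wfdc12, Dsg1c, Il1b, Ctsc and Lgmn), against 7.16% of all genes tested. It called 6 lower (Klk12, Prss8, Tmprss4, Serpina12, Dsg1a and Dsc1), against 4.48% of all genes. Their median log2 fold change was -0.13, against -0.014 over all genes tested.

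Of the 18 other kallikreins, 2 passed the filter and 1 was called. Klk12 had 5.87, 3.91, 3.25 and 4.02 TPM in S. epi + anti-CTLA-4 replicates 1 to 4, against 8.63, 6.89, 6.32, 7.75 and 5.16 TPM in S. epi replicates 1 to 5. It fell by 0.60 on the log2 scale (adjusted p = 0.0426, limma), with groups that overlapped, and the call was kept 2 times when each of the 9 libraries was omitted in turn. Klk9, which lies between Klk10 and Klk8, averaged 67.0 ± 14.0 TPM with anti-CTLA-4 (SD, n = 4) and 75.3 ± 16.9 TPM with S. epi alone (SD, n = 5), with a log2 fold change of -0.16. The 16 other kallikrein genes that were not tested, most of them Klk1 relatives with near-identical copies, were at 0.69 TPM or below in every library, and 5 of them were at 0 throughout.

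Of 7 genes of the matriptase cascade, all tested, 2 were called lower. Prss8, which encodes prostasin, a membrane protease that works with matriptase, had 24.6, 32.9, 29.6 and 25.4 TPM in S. epi + anti-CTLA-4 replicates 1 to 4, against 55.2, 39.4, 38.2, 39.5 and 34.5 TPM in S. epi replicates 1 to 5. It fell by 0.53 on the log2 scale without overlap (adjusted p = 0.0358, limma). Tmprss4, a further membrane serine protease, fell by 0.29 (adjusted p = 0.0313, limma). With each of the 9 libraries omitted in turn, the call of Prss8 was kept 4 times and that of Tmprss4 3 times. Tmprss11f averaged 9.29 ± 2.00 TPM with anti-CTLA-4 (SD, n = 4) and 14.1 ± 2.71 TPM with S. epi alone (SD, n = 5), with an adjusted p of 0.0501 (limma).

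Among 17 other protease inhibitors, 8 were tested, of which 1 was called higher, 1 lower and 6 neither. Serpina12, which encodes vaspin, an inhibitor of KLK7, had 16.5, 22.0, 17.5 and 11.0 TPM in S. epi + anti-CTLA-4 replicates 1 to 4, against 35.4, 36.5, 25.5, 44.1 and 26.3 TPM in S. epi replicates 1 to 5. It fell by 0.97 on the log2 scale, with no overlap (adjusted p = 0.0186, limma). Wfdc12, a small secreted protease inhibitor, had 34.9, 79.9, 45.2 and 39.4 TPM in S. epi + anti-CTLA-4 replicates 1 to 4, against 16.7, 21.0, 26.1, 8.19 and 16.5 TPM in S. epi replicates 1 to 5. It rose by 1.45 on the log2 scale without overlap (adjusted p = 0.0209, limma). Both calls were kept whichever of the 9 libraries was omitted. Slpi, which encodes a secreted inhibitor of KLK7 and of leukocyte elastase, averaged 22.6 ± 4.29 TPM with anti-CTLA-4 (SD, n = 4) and 14.4 ± 7.92 TPM with S. epi alone (SD, n = 5), with a log2 fold change of 0.76 (adjusted p = 0.196, limma).

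Among 11 substrates and downstream genes, 10 were tested, of which 2 were called lower and 2 higher. Dsg1a, which encodes desmoglein 1 of the junctions, had 175, 216, 217 and 178 TPM in S. epi + anti-CTLA-4 replicates 1 to 4, against 300.3, 272, 256, 287 and 262 TPM in S. epi replicates 1 to 5. It fell by 0.49 on the log2 scale without overlap (adjusted p = 0.00931, limma), and Dsc1, for desmocollin 1, fell by 0.35 (adjusted p = 0.0392, limma). The Dsc1 call was kept 3 times when each of the 9 libraries was omitted in turn. Dsg1c, a near copy of Dsg1a, rose by 0.85 at a low level, 3.30 ± 0.881 TPM with anti-CTLA-4 (SD, n = 4) and 1.36 ± 0.281 TPM with S. epi alone (SD, n = 5). Dsg1b, a further gene of this kind, averaged 85.4 ± 8.25 TPM with anti-CTLA-4 (SD, n = 4) and 102.9 ± 7.01 TPM with S. epi alone (SD, n = 5). It was lower without overlap but not called, with a log2 fold change of -0.27 (adjusted p = 0.0586, limma). No source states how reads shared by these copies were counted. Cdsn, for corneodesmosin, averaged 339 ± 44.8 TPM with anti-CTLA-4 (SD, n = 4) and 449 ± 74.3 TPM with S. epi alone (SD, n = 5), with a log2 fold change of -0.40 and an adjusted p of 0.0826 (limma).

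Cdsn and F2rl1 are named as known substrates, and Dsg1b beside Dsg1a and Dsg1c, all chosen after their values were seen. F2rl1, for a protease-activated receptor that KLK5 can cut, averaged 12.5 ± 1.78 TPM with anti-CTLA-4 (SD, n = 4) and 13.7 ± 1.01 TPM with S. epi alone (SD, n = 5), with a log2 fold change of -0.13. Il1b, for a cytokine precursor that kallikreins can cut in vitro, had 28.1, 28.2, 27.2 and 25.4 TPM in S. epi + anti-CTLA-4 replicates 1 to 4, against 2.19, 4.07, 10.4, 2.59 and 19.0 TPM in S. epi replicates 1 to 5. It rose by 2.08 on the log2 scale (adjusted p = 0.0280, limma), and the call was kept 2 times when each of the 9 libraries was omitted in turn. Leukocyte markers were higher with anti-CTLA-4 too, and the part of leukocytes in the Il1b result was not tested.

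Of 8 other proteases, 7 were tested and 2, both cysteine proteases of lysosomes, were called higher. Ctsc, for cathepsin C, averaged 41.0 ± 4.65 TPM with anti-CTLA-4 (SD, n = 4) and 19.9 ± 2.40 TPM with S. epi alone (SD, n = 5). It rose by 1.01 on the log2 scale (adjusted p = 0.00217, limma). Lgmn, for legumain, averaged 28.0 ± 3.69 TPM with anti-CTLA-4 (SD, n = 4) and 14.3 ± 2.70 TPM with S. epi alone (SD, n = 5). It rose by 0.93 (adjusted p = 0.00517, limma). Asprv1, for a protease of the granular layer that acts on filaggrin precursors, averaged 1551 ± 350.0 TPM with anti-CTLA-4 (SD, n = 4) and 2094 ± 599 TPM with S. epi alone (SD, n = 5), with a log2 fold change of -0.42 (adjusted p = 0.235, limma). Ctsc and Lgmn are also expressed by leukocytes, whose markers were higher in these libraries, and the part of leukocytes in both results was not tested.

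**Figure D4:**
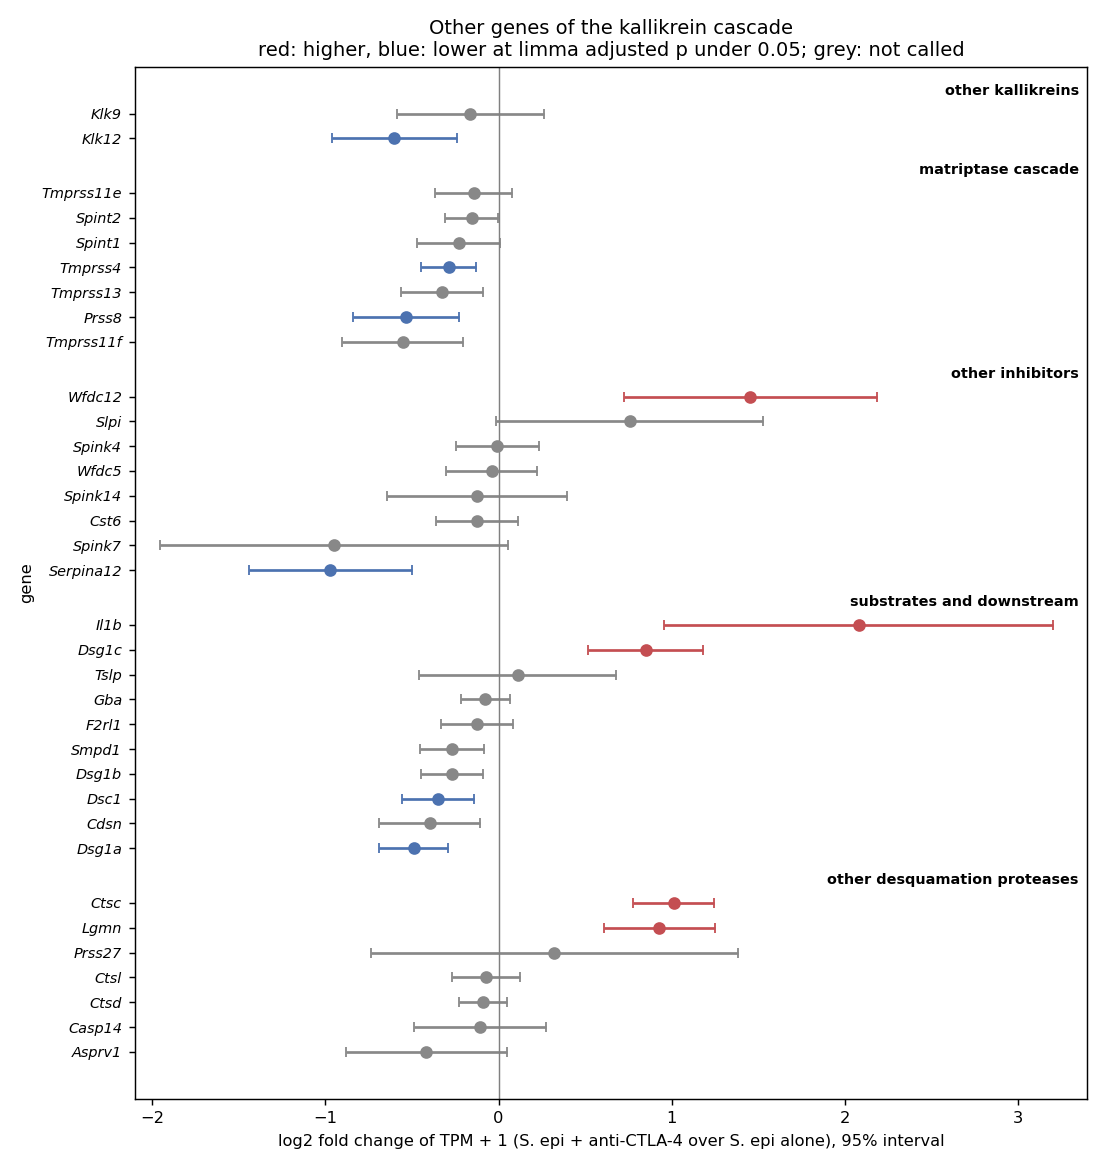
Log2 fold change of TPM + 1 (S. epi + anti-CTLA-4 over S. epi alone) with its 95% interval for the 34 tested genes of the other pathway lists. The 5 genes called higher are in red and the 6 called lower in blue, from Il1b at 2.08 to Serpina12 at -0.97.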

How the data were processed

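Bulk RNA sequencing of whole ear tissue gave 9 libraries, grouped by their titles into S. epi + anti-CTLA-4 (n = 4) and S. epi (n = 5). The authors deposited TPM per gene for 25124 genes on mm10. The submitters' processing notes name STAR, HOMER and DESeq2, without versions, roles or a gene annotation. The length column equals the genomic span for 99.2% of genes, and values multiplied by it gave whole reads, within 0.1 read, for 100% of the 3249 to 3379 low values checked per library (spans under 20000.0 bases, up to 20 reads). Depth and reads were recovered in this way.

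A gene was tested if 4 or more libraries had 1 TPM or more (15704 genes), by limma 3.58.1 (R 4.3.3) applied to log2(TPM + 1), with a trended empirical Bayes variance, Benjamini-Hochberg adjustment over all genes tested and a threshold of 0.05. The pseudocount of 1 understates changes of low genes. An exact permutation test (two-sided, 126 arrangements) was run on single values. The members and lists were chosen with earlier results of these data known. Named were all members, every called gene of the other pathway lists, up to 3 tested genes per list with the smallest p, and the 2 protein-coding genes nearest to each member. The limma script was tested on simulated data. Tried were other pseudocounts, filters, scalings, variance models, a replicate block, marker lists as covariates, each library left out, protein-coding genes alone, the permutation test and a threshold of 0.1. Chosen after seeing the data were 2 fits on recovered reads (RPM and limma-voom), the granular keratinocyte covariate and levels per exon length. Protein sequences were not used here.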

Additional observations from a re-analysis of the deposited data

Results flagged for a closer look

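Klk5 had 62.2 TPM in S. epi replicate 1, far above the other 4 libraries of its group, which lay between 42.5 and 44.5 TPM (mean 43.5 ± 0.797, SD). This gap was 0.901 of the group's range. Of 18 groups of libraries examined in this way for the 9 tested members, this was the 1 that stood out, and chance picks out about 1 in 20 such groups. The 4 anti-CTLA-4 libraries lay at 26.9 to 38.2 TPM, below all 5 S. epi libraries with or without replicate 1.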

How the results depend on the processing

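In the main fit 0 members were called. Lower calls were 4 without the 50 most abundant genes, 3 after quantile normalization, without the ribosomal RNA entries, at an adjusted p threshold of 0.1 or with RPM of recovered reads, 2 among protein-coding genes alone, and 1 with the 5 TPM filter, a common median, robust variance or limma-voom. Over all 15704 genes tested, 716 were called lower without the ribosomal RNA entries and 736 with robust variance. Among protein-coding genes alone 813 of 14023 were called lower, and with the 5 TPM filter 623 of 11512. Lower calls over all genes for the other settings are given below. No setting called a member higher, and each fit of the deposited TPM without 1 library called 0 members. Klk10 turned positive without the ribosomal RNA entries (0.0010), with the basal (0.20), hair follicle (0.17) or granular (0.093) covariate, with RPM of recovered reads (0.0066) or limma-voom (0.017), and without S. epi replicate 1 (0.033), anti-CTLA-4 replicate 1 (0.047) or anti-CTLA-4 replicate 2 (0.035), with a range of -0.11 to 0.047 over the fits without 1 library. With the granular covariate Klk7 (0.14) and Klk8 (0.031) turned positive, and with the muscle covariate Klk6 (-0.057) and Klk13 (-0.0044) turned negative. The cause was not tested.

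Of the other pathway genes, 5 higher calls and 6 lower calls became 0 and 0 with any covariate and in the exact permutation test (5 and 11 at an unadjusted p under 0.05). Lower calls were 3 with no filter, 10 after quantile normalization, without the 50 most abundant genes or with RPM of recovered reads, and 11 at a threshold of 0.1 or with limma-voom. Without 1 library they were 3 to 5, and higher calls 4 to 5. Over all genes, 1124 higher and 704 lower calls became 0 and 1 with the basal, hair follicle or muscle covariate, 8 and 2 with the granular one, and 0 and 0 in the exact permutation test, whose smallest adjusted p is 0.110 (1973 and 1863 at an unadjusted p under 0.05). They became 1772 and 1138 with RPM of recovered reads, and 1833 and 1139 with limma-voom. Lower calls were 1429 after quantile normalization, 1323 with a common median, 1306 without the 50 most abundant genes and 1260.0 at a threshold of 0.1. Without 1 library, 706 to 1094 genes were called higher and 337 to 703 lower.

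Replicate numbers did not pair the libraries: same-numbered libraries deviated with correlations of -0.0086, 0.018, -0.091 and -0.093. With the replicate number as a block, 593 genes were called higher and 88 lower, 0 members were called, and 1 other pathway gene was called lower. With the block the log2 fold change of Klk5 was -0.51 (adjusted p = 0.18, limma).

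Depth limited Klk14. For the rest, 4 and 5 libraries, bulk tissue and changes in keratinocyte markers limit what can be read.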
